A study of Mesostigma viride with 16 samples.

Results

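Of the 24431 genes listed for the green alga *Mesostigma viride*, 157 had opposite changes when light was taken away and when it was raised. Light-induced is used here for the 115 genes that were lower in darkness and higher under high light than in untreated cells, and light-repressed for the 42 genes with the reverse order. The genes were chosen on their FPKM values, that is fragment numbers normalized for transcript length and library size. The reference level of a gene, called its untreated level, was its mean over the 3 untreated libraries. A gene had to reach 1 FPKM in 2 libraries, and its untreated libraries had to lie within 1.5-fold of each other. A light-induced gene then had a log2 ratio to the untreated level of at least 1 under high light and of at most -0.8 in darkness, with 0.1 FPKM added to both levels, and a light-repressed gene had a ratio of at most -1 under high light and at least 0.8 in darkness. Of 13378 genes that reached 1 FPKM in 2 libraries, 11083 had such untreated libraries, and 118 of these (1.06%) met the criteria of the first kind and 44 (0.397%) those of the second. Genes on the study's lists of cell division and cell wall, transcription factor, phytohormone, epigenetic and photosynthesis genes were left out, which removed 3 and 2 genes. The levels in darkness, in untreated cells and under high light chose the genes, so they are described below without a test.

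*M. viride* is a single-celled, swimming freshwater alga of the charophyte lineage, the green algae closest to land plants. Cells of strain NIES-296 were 24 days old, grown at 23 °C and pH 7.5 in medium C, with cycles of 10 h light and 14 h darkness and a light intensity of 50 µmol photons per square metre and second. For 24 h, separate cultures were then kept in darkness, at 400 µmol photons (high light), at 12 °C (cold), at 32 °C (high temperature), at pH 6.0 (low pH, adjusted with Tris-HCl) or at pH 9.0 (high pH, adjusted with NaOH). Control 1 was untreated cells and serves for light and temperature, and Control 2 was untreated cells that received an equal volume of medium C and serves for pH. All groups were this 1 strain, and neither the labels nor the methods name a mutation or transgene. Each treatment and Control 2 had 2 biological replicates, and of Control 1 only replicate 2 was analysed here. The phase of the light cycle at harvest is not stated in the sources used here. FPKM are shares of a library, and fewer cells that express a gene cannot be told apart from less RNA per cell. The summed FPKM of the libraries were 578174 to 683704. Both high temperature libraries stood apart, with most genes lower than elsewhere: relative to Control 1, the 14297 tested genes had a median log2 fold change of -1.29, so the numbers of members called at high temperature are also given on a scale that removes most of this shift. Other values are on the deposited scale unless another is named.

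Green algae and plants sense light through photoreceptors such as cryptochromes and phytochromes, and through signals from the chloroplast that follow the state of photosynthetic electron transport. Under strong light they are known to make more of the proteins that protect and repair the photosystems and less of the light-harvesting antenna. In darkness they draw on stored carbohydrate, and many transcripts for photosynthesis and chlorophyll synthesis decline. Neither the files nor the lists in the study's supplement pair the members with gene names, apart from 1 gene with Gene Ontology terms, so the members are called by their identifiers and no role is given to them. No sequence of these genes was used here.

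Most light-induced genes lay further above the untreated level under high light than below it in darkness, an order that the uneven thresholds favour. Their untreated level was 0.666 to 583 FPKM (median 22.8), with 76 of the 115 genes between 10 and 100 FPKM and 14 at 100 FPKM or more. Under high light the log2 ratio to the untreated level was 1.0001 to 5.36 (median 1.82, that is 3.53-fold), and in darkness it was -3.64 to -0.80 (median -1.07, with the untreated level 2.12-fold that in darkness). High light exceeded darkness by 3.60-fold to 445-fold (median 8.02-fold). The step from untreated cells to high light was the larger of the 2 in 99 genes and the step to darkness in 16. The rule asked for a log2 step of at least 1 to high light but only 0.8 to darkness. A gene whose step to darkness was under 2-fold thus had the larger step to high light by the rule. Both steps reached 2-fold in 67 genes and 4-fold in 3, Mv18926-RA, Mv07120-RA and Mv16082-RA. In all 115 genes both darkness libraries lay below, and both high light libraries above, all 3 untreated libraries. Of all tested genes 10.8% had that order, and since these libraries chose the members the count has no further meaning. The 2 replicates of high light differed by a median of 0.07 (at most 0.79) on the log2 scale, and those of darkness by 0.06 (at most 0.53). The rule set the least size of the steps, so the steps are not weighed against these differences. Together the 115 genes took 0.338% and 0.339% of the summed FPKM in the darkness libraries, 0.924% to 0.987% in the untreated libraries and 5.44% and 5.40% in the high light libraries.

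**Figure D1:**
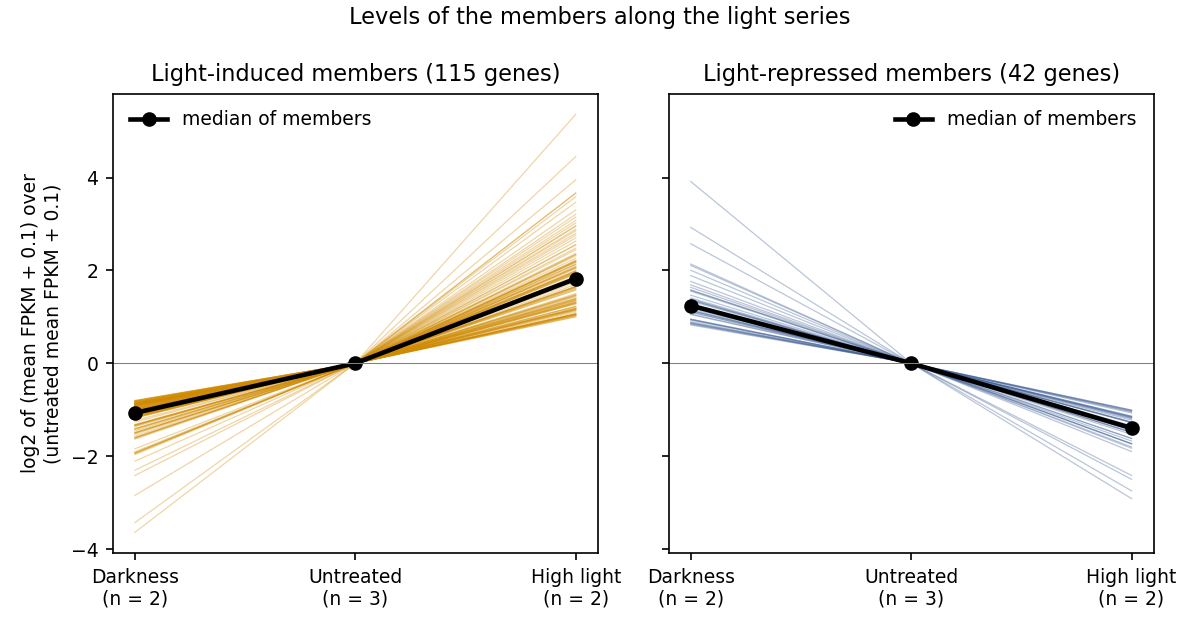
Log2 ratio of each gene's mean FPKM (with 0.1 added) to its untreated level, in darkness (n = 2 libraries), untreated cells (n = 3) and high light (n = 2), with 1 line per gene and the median of the genes in black. The 115 light-induced genes had medians of -1.07 in darkness and 1.82 under high light, and the 42 light-repressed genes 1.24 and -1.40; these values chose the genes.

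The 4 most graded light-induced genes, those with the largest smaller step among genes with an untreated level of at least 10 FPKM, were Mv18926-RA, Mv07120-RA, Mv16082-RA and Mv12184-RA. Mv18926-RA had 16.6 and 15.97 FPKM in the 2 darkness libraries, 143, 187 and 199 FPKM in the untreated libraries (Control 1 first) and 6937 and 7562 FPKM under high light. Its high light level was 41.1-fold the untreated level and 445-fold the level in darkness, the widest range of all members. It had the highest level of all members under high light, but not in darkness or in untreated cells. Mv07120-RA had 27.2 and 25.5 FPKM in darkness, 170.4, 189 and 210.4 FPKM in untreated cells and 1518 and 1447 FPKM under high light. Its steps were of almost equal size, 7.20-fold from darkness to untreated cells and 7.80-fold from there to high light.

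In Mv16082-RA the step between darkness and untreated cells was the larger one. It had 24.6 and 23.96 FPKM in darkness, 308, 293 and 309.7 FPKM in the untreated libraries and 1305 and 1256 FPKM under high light, which is 12.5-fold and then 4.22-fold. Mv12184-RA had the highest untreated level of the light-induced genes, with 643, 532 and 574 FPKM in the 3 untreated libraries. In darkness it had 147 and 151 FPKM and under high light 2569 and 2544 FPKM. The darkness, untreated and high light libraries did not overlap in any of these 4 genes, and the untreated libraries of each were nearer to each other than to any darkness or high light library. The choice of these genes nearly fixes both, and nothing is read from them.

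Mv20602-RA had a large step above the untreated level. It had 14.5 and 13.96 FPKM in darkness, 39.6, 46.7 and 43.96 FPKM in untreated cells and 962 and 941 FPKM under high light. This gene is 1 of 12 light-induced genes whose level under high light was at least 8-fold the untreated level. Another 32 genes rose by 4-fold to under 8-fold, and 71 by less than 4-fold. Mv17898-RA had the lowest untreated level, with 0.228 and 0.287 FPKM in darkness, 0.534, 0.762 and 0.701 FPKM in untreated cells and 2.87 and 3.01 FPKM under high light. It was the only light-induced gene under 1 FPKM in untreated cells. At these levels the 0.1 FPKM added before taking logs makes its ratios smaller than the plain ratios of the values.

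The thresholds cut through a continuous range. Mv02039-RA lay just inside the high light threshold, with a log2 ratio of 1.00007 and 115 and 102 FPKM under high light against 45.8, 62.8 and 54.2 FPKM in untreated cells. Mv18241-RA lay just outside, with a ratio of 0.99923 and 18.1 and 15.1 FPKM under high light against 7.997, 8.23 and 8.57 FPKM in untreated cells. Among light-repressed genes, Mv09686-RA lay just inside, with ratios of -1.005 under high light and 0.82 in darkness. Mv24113-RA lay just outside, with ratios of -1.28 and 0.80, the latter being 0.79624 before rounding.

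The light-repressed genes were fewer, and their 2 steps were closer to each other in size. Their untreated level was 1.10 to 1677 FPKM (median 17.5). In darkness the log2 ratio to the untreated level was 0.82 to 3.91 (median 1.24, that is 2.39-fold), and under high light it was -2.91 to -1.005 (median -1.40, with the untreated level 2.68-fold that under high light). Darkness exceeded high light by 3.58-fold to 40.6-fold (median 6.70-fold). The step to high light was the larger in 24 genes and the step to darkness in 18, and both reached 2-fold in 32 genes and 4-fold in 2, Mv18286-RA and Mv21829-RA. Genes outside these 32 had the larger step to high light by the uneven thresholds, and all 18 with the larger step to darkness lie among the 32. All 42 genes had both darkness libraries above, and both high light libraries below, all untreated libraries, an order that 10.4% of all tested genes had and that the choice of members nearly fixes. Their share of the summed FPKM was 2.25% in both darkness libraries, 0.787% to 0.842% in untreated cells and 0.231% and 0.224% under high light.

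The 4 most graded light-repressed genes by the same measure were Mv18286-RA, Mv21829-RA, Mv01132-RA and Mv11590-RA. Mv18286-RA had 3262 and 3172 FPKM in darkness, 417, 429 and 424 FPKM in untreated cells and 83.03 and 75.6 FPKM under high light. Its level in darkness was 40.6-fold that under high light, the widest range of the light-repressed genes. Mv21829-RA had 448 and 448 FPKM in darkness, 99.9, 110.4 and 102 FPKM in untreated cells and 19.4 and 17.3 FPKM under high light. For Mv01132-RA the values were 1444 and 1434 FPKM, 515, 429 and 396 FPKM and 116 and 123 FPKM in the same order, and for Mv11590-RA they were 289 and 279.5 FPKM, 94.7, 80.7 and 75.6 FPKM and 25.5 and 26.8 FPKM. The darkness, untreated and high light libraries did not overlap in any of the 4, which the choice of these genes nearly fixes.

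**Figure D2:**
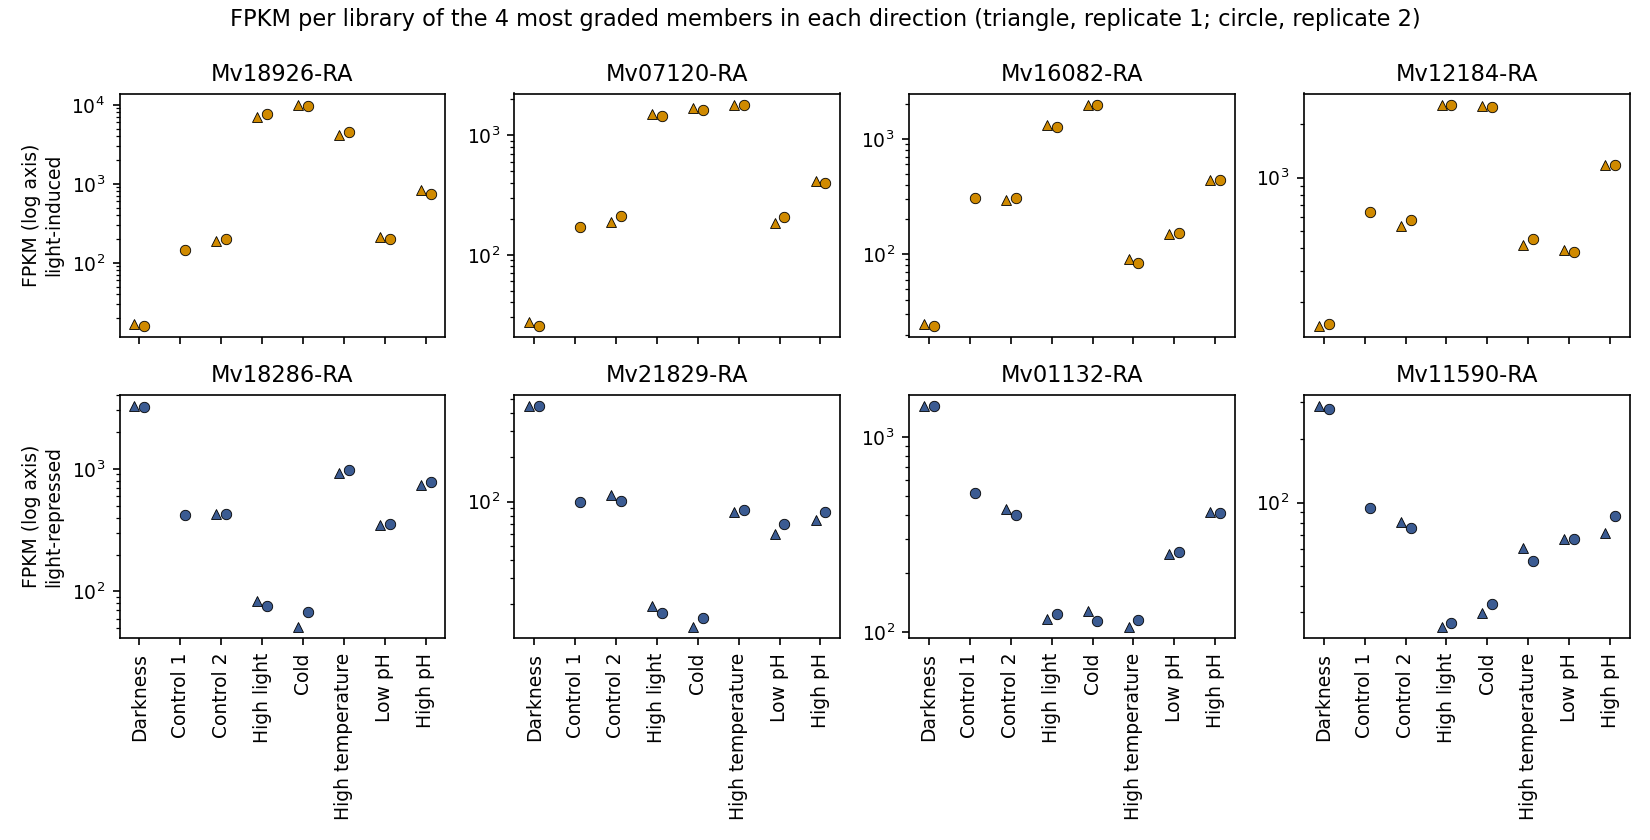
FPKM on a log axis in every library (triangle, replicate 1; circle, replicate 2; replicate 2 only for Control 1) of the 4 most graded light-induced genes (top) and light-repressed genes (bottom). Mv18926-RA ran from 16.0 FPKM in darkness to 10059 FPKM in cold, and the mean in cold was within 2-fold of that under high light in all 8 genes, and the mean at high temperature in 3 of them, Mv18926-RA, Mv07120-RA and Mv01132-RA.

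The light-repressed gene with the highest untreated level was Mv09033-RA, with 3591 and 3604 FPKM in darkness, 1985, 1545 and 1501 FPKM in untreated cells and 249 and 251 FPKM under high light. Its step to high light (6.71-fold) was larger than that to darkness (2.15-fold). Mv02738-RA had the opposite shape, with the largest step to darkness of all members: 172 and 173 FPKM in darkness, 13.1, 10.6 and 10.4 FPKM in untreated cells and 4.46 and 4.38 FPKM under high light. The level in darkness was thus 15.2-fold the untreated level, and the untreated level 2.57-fold that under high light. Mv23015-RA, the light-repressed gene with the lowest untreated level, had 2.11 and 3.11 FPKM in darkness, 1.04, 1.14 and 1.12 FPKM in untreated cells and 0.157 and 0.533 FPKM under high light. Its 2 high light libraries differed more from each other than those of any other light-repressed gene.

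The 1 member with Gene Ontology terms in the study's lists was the light-induced gene Mv20784-RA, whose terms include response to light stimulus, brassinosteroid biosynthetic process, cell wall organization, root development and calmodulin binding. Brassinosteroids are growth hormones of land plants, and calmodulin is a calcium sensor. Mv20784-RA had 25.01 and 24.6 FPKM in darkness, 78.6, 101 and 107 FPKM in untreated cells and 408 and 391 FPKM under high light. Of the 5 genes that met the criteria but stood on a list and were left out, 2 came from the photosynthesis list, on which 11 of 12 genes reached 1 FPKM in 2 libraries and had untreated libraries within 1.5-fold. Both of them (18.2% of the 11, against 1.06% of all such genes) were of the light-induced kind. Mv19820-RA is listed as a homolog of *Arabidopsis* VAR2/FTSH2, a thylakoid protease that removes damaged photosystem II protein, and had 66.8 and 67.05 FPKM in darkness, 149, 137 and 120.0 FPKM in untreated cells and 788 and 779.7 FPKM under high light. Mv13545-RA is listed as a homolog of ASP5, an aspartate aminotransferase, and had 9.04 and 9.74, 32.5, 47.5 and 45.8 and 94.04 and 84.5 FPKM in that order.

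The other 3 genes left out were listed as transcription factors, 1 with the light-induced and 2 with the light-repressed order among 91 genes with usable levels on that list (1.10% and 2.198%, against 1.06% and 0.397% of all such genes). The bZIP gene Mv16600-RA followed the light-induced order, with 12.2 and 11.4 FPKM in darkness, 24.9, 32.98 and 31.8 FPKM in untreated cells and 89.4 and 79.5 FPKM under high light. The bZIP gene Mv11124-RA followed the opposite order, with 83.6 and 84.2 FPKM, 31.97, 31.9 and 29.4 FPKM and 11.99 and 11.6 FPKM. The AP2/ERF gene Mv03756-RA had 25.6 and 25.4 FPKM in darkness and 6.34 and 6.12 FPKM under high light. bZIP and AP2/ERF are families of DNA-binding proteins, and in plants HY5, a bZIP protein, promotes light responses. On the cell division and cell wall (129 genes), epigenetic (37) and phytohormone (14) lists, 0 of the genes with usable levels met the criteria in either direction, against the same 1.06% and 0.397%.

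Several light-induced genes had nearly the same profile in all 15 libraries. The log2 ratio of Mv04869-RA to Mv20901-RA had an SD of 0.02 over the libraries, and their FPKM never differed by more than 1.14-fold. For Mv04867-RA and Mv20903-RA the SD was 0.03 and the largest difference 1.12-fold. Mv06882-RA and Mv13613-RA kept a constant ratio too (SD 0.07), at different levels. Cufflinks, which the authors ran with default parameters, by default divides a read that aligns to several places equally among them, so the values of these pairs are uncertain if their sequences are alike, and each pair counts as 2 genes throughout.

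In cold most members changed in the direction that they had under high light. For both temperature treatments the reference was Control 1, whose single library is taken to have the spread found between replicates elsewhere. A gene was called when its Benjamini-Hochberg adjusted p over all 14297 tested genes (limma) was at most 0.01 and its change at least 2-fold. All 157 members were among the tested genes. Of the 115 light-induced genes 100 (87.0%) rose in cold and 0 fell, against 3.76% of all tested genes that rose and 8.28% that fell. Their median log2 fold change was 1.87 (0.29 to 6.11), and that of all tested genes -0.26. Of the 42 light-repressed genes 36 (85.7%) fell and 0 rose, with a median of -1.91 (-3.79 to 0.40). The untreated library in this comparison also took part in choosing the members, through the untreated level.

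The numbers were similar with a reference that took no part in the choice. With low pH in place of Control 1, an alternative added after the results were seen, 104 light-induced genes rose in cold and 0 fell (5.25% and 6.48% of all tested genes), and 30 light-repressed genes fell and 2 rose (Mv00316-RA and Mv01909-RA). Both cold libraries lay above all 3 untreated libraries in 114 of the 115 light-induced genes, an order found in 22.6% of all tested genes, and below them in 41 of the 42 light-repressed genes, against 43.5% of all tested genes. In 53 light-induced genes both cold libraries also lay above both high light libraries. This was so in 24.3% of all tested genes, but the high light libraries chose the members, and nothing is read from the count. The share of the 115 genes in the summed FPKM was 6.71% and 6.61% in cold, above that under high light, and the share of the 42 genes was 0.199% and 0.205%.

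**Figure D3:**
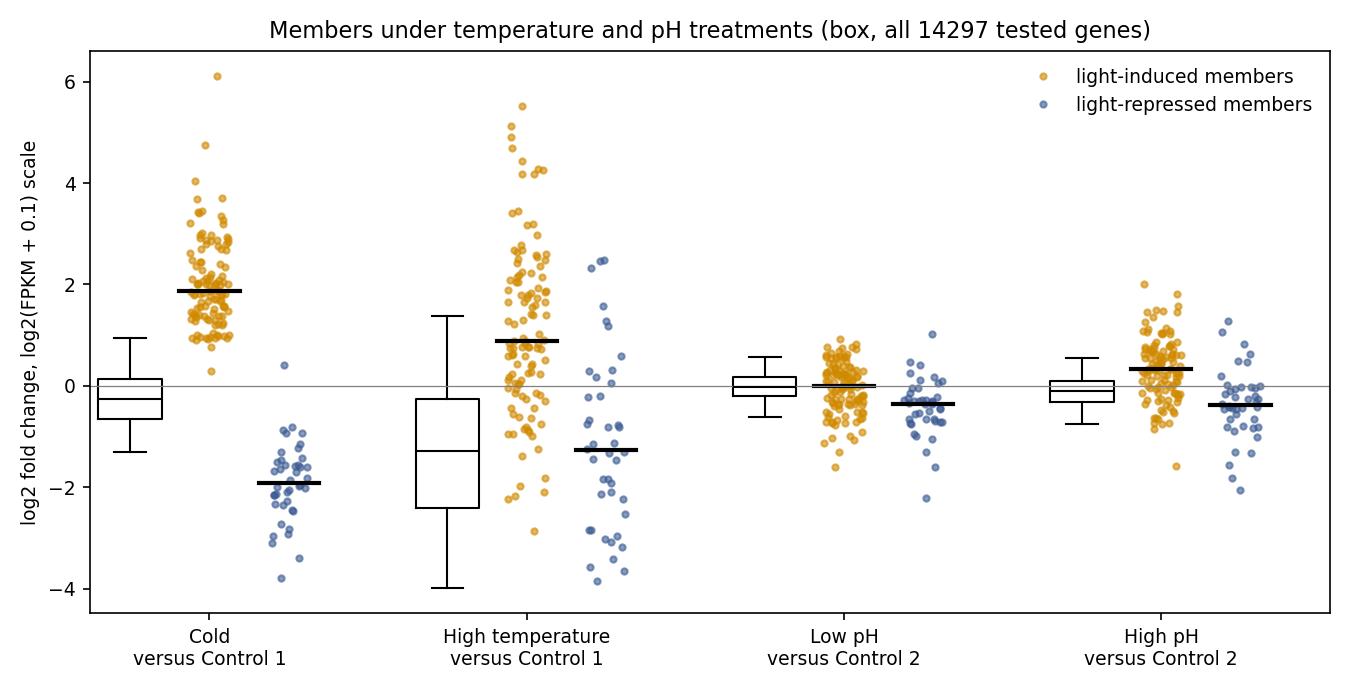
Log2 fold changes of the members (points, on the log2(FPKM + 0.1) scale) in cold and high temperature relative to Control 1 and in low and high pH relative to Control 2, with black bars at the medians of the members. Boxes show the median and quartiles of all 14297 tested genes, with whiskers to a set low and a set high percentile of these genes rather than to their extremes. In cold the medians were 1.87 for light-induced and -1.91 for light-repressed genes, and at high temperature they were 0.88 and -1.27 while all genes had -1.29.

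The largest rise in cold was that of Mv18926-RA, with 10059 and 9702 FPKM against 143 FPKM in Control 1 and a log2 fold change of 6.11 (standard error 0.083, adjusted p = 5.75e-12). Mv20602-RA followed, with 1114 and 1014 FPKM in cold against 39.6 FPKM and a log2 fold change of 4.74. The annotated gene Mv20784-RA had 529 and 535 FPKM in cold against 78.6 FPKM, a log2 fold change of 2.76 (standard error 0.0758, adjusted p = 5.88e-10). In these 3 genes the cold libraries lay above the high light libraries. Mv06697-RA was the exception among the light-induced genes, named after its values were seen, with 17.7 and 19.7 FPKM in cold against 15.3, 15.7 and 18.2 FPKM in untreated cells and a log2 fold change of 0.29 (standard error 0.192, adjusted p = 0.235).

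Among the light-repressed genes, Mv09033-RA fell most in cold, to 132 and 156 FPKM from 1985 FPKM in Control 1, a log2 fold change of -3.79 (standard error 0.0765, adjusted p = 7.46e-11). Mv18286-RA fell to 51.2 and 68.2 FPKM from 417 FPKM, a log2 fold change of -2.82. Both were lower in cold than under high light. The exception, again named after its values were seen, was Mv00316-RA, with 17.2 and 19.95 FPKM in cold against 14.01, 16.7 and 15.9 FPKM in untreated cells and a log2 fold change of 0.40 (standard error 0.161, adjusted p = 0.0598). Mv01909-RA, at 0.539 and 0.741 FPKM in cold and 1.30 FPKM in Control 1, did not pass the test either, its log2 fold change being -0.94 (standard error 0.329, adjusted p = 0.0365). Relative to low pH, where this gene was low, it was higher in cold by 1.29 on the log2 scale and was called.

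The change in cold was larger in groups of genes with a larger step to high light, although both use the Control 1 library. All 12 light-induced genes with a high light step of at least 8-fold rose in cold (median log2 fold change 3.44), as did all 32 genes with a step of 4-fold to under 8-fold (median 2.65) and 56 of the 71 with a smaller step (median 1.51). Of the 16 genes whose step to darkness was the larger, 10 rose, and of all tested genes 3.76% rose. Across the 115 genes, the log2 ratio of high light to the untreated level and the log2 difference between cold and low pH, which share no library, had a Pearson correlation of 0.75 (Spearman 0.69). Across the 42 light-repressed genes it was 0.65 (Spearman 0.66). With the log2 ratio of darkness to the untreated level in place of that of high light, the correlation was -0.43 (Spearman -0.23) across the light-induced genes. There the ratio is negative, so a deeper fall in darkness went with a larger difference between cold and low pH. Across the light-repressed genes the correlation was -0.05 (Spearman -0.04). Genes are not independent replicates, and these values are descriptions.

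At high temperature the members divided. On the deposited scale 54 light-induced genes (47.0%) rose relative to Control 1 and 8 fell, against 6.83% of all tested genes that rose and 55.3% that fell. Their median log2 fold change was 0.88 (-2.86 to 5.52) while all tested genes had -1.29. Of the light-repressed genes 6 rose and 24 (57.1%) fell, with a median of -1.27 (-3.85 to 2.48), so that this share was close to that of all genes. Dividing each library by the median ratio of its genes to their geometric mean brought the median of all genes to -0.18. On this scale of gene ratios, 90 light-induced genes rose and 2, Mv20454-RA and Mv17163-RA, fell (20.5% and 29.8% of all tested genes), with a median of 2.05. There 11 light-repressed genes rose and 12 fell, with a median of -0.12. With low pH as the reference, 58 light-induced genes rose and 11 fell, and 7 light-repressed genes rose and 17 fell (6.82% and 52.6% of all tested genes).

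Counted by libraries on the deposited scale, both high temperature libraries lay above all untreated libraries in 78 light-induced and 10 light-repressed genes (14.4% of all tested genes). They lay below in 25 light-induced and 30 light-repressed genes (69.7% of all tested genes). In 25 light-induced genes they lay above both high light libraries too (16% of all tested genes), a count from which, again, nothing is read. The share of the light-induced genes in the summed FPKM was 4.28% and 4.22% at high temperature, and that of the light-repressed genes 0.677% and 0.690%.

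Mv20602-RA had the largest rise at high temperature, to 1776 and 1860.1 FPKM from 39.6 FPKM in Control 1, a log2 fold change of 5.52 (standard error 0.12, adjusted p = 1.59e-11). Mv07120-RA rose to 1812 and 1811 FPKM from 170.4 FPKM, a log2 fold change of 3.41, and Mv18926-RA to 4141 and 4482 FPKM, a log2 fold change of 4.91. On the scale of gene ratios these changes were 6.69, 4.59 and 6.08. The 3 genes were also called higher in cold. The largest fall among light-induced genes was that of Mv20454-RA, which had 4.56 and 3.33 FPKM at high temperature, 28.9 FPKM in Control 1 and 103 and 99.8 FPKM in cold. Its log2 fold change at high temperature was -2.86 (standard error 0.142, adjusted p = 5.29e-09), or -1.70 on the scale of gene ratios, and its FPKM were also lower than in darkness, where it had 5.59 and 6.31 FPKM. That order of high temperature and darkness holds on the deposited scale only. Dividing by the factors of the gene-ratio scale, 0.595 and 0.513 at high temperature and 1.201 and 1.202 in darkness, reverses it. Mv16082-RA fell to 90.5 and 84.1 FPKM from 308 FPKM, a log2 fold change of -1.82, which became -0.64 and lost its call on the scale of gene ratios. Mv12184-RA, at 418 and 454 FPKM, was not called, and its log2 fold change of -0.56 turned to 0.61 with that scaling.

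Of the light-repressed genes, Mv20996-RA rose most at high temperature, to 83.8 and 85.3 FPKM from 15.1 FPKM in Control 1, a log2 fold change of 2.48 (standard error 0.0849, adjusted p = 2.96e-10). Mv02738-RA rose to 69.9 and 61.5 FPKM from 13.1 FPKM (2.32 on the log2 scale) and Mv18286-RA to 924 and 976 FPKM from 417 FPKM (1.19). On the scale of gene ratios the 3 values were 3.65, 3.49 and 2.36. For all 3 the direction at high temperature was that of darkness, and for Mv18286-RA it held under the other scalings but was not called after quantile normalization (0.47). The largest fall was that of Mv17758-RA, to 0.778 and 0.715 FPKM from 12.1 FPKM, a log2 fold change of -3.85 (standard error 0.1, adjusted p = 4.4e-11), or -2.76 on the scale of gene ratios. Mv09033-RA fell to 260.4 and 249 FPKM from 1985 FPKM and Mv01132-RA to 106 and 115 FPKM from 515 FPKM, with log2 fold changes of -2.96 and -2.22, and -1.79 and -1.05 on the scale of gene ratios, where both remained called. Mv21829-RA and Mv11590-RA had 84.6 and 87.9 and 60.5 and 52.9 FPKM at high temperature and were not called, and their log2 fold changes of -0.21 and -0.74 turned to 0.96 and 0.43 with the scaling by gene ratios.

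High temperature and cold were also compared directly, since none of these 4 libraries took part in choosing the members. On the deposited scale 57 light-induced genes were lower at high temperature than in cold and 8 were higher, with 50.7% and 7.85% of all tested genes. Their median log2 fold change of -0.98 was near the -1.07 of all genes. Of the light-repressed genes 14 (33.3%) were higher at high temperature and 7 lower, with a median of 0.50. On the scale of gene ratios 25 light-induced genes were higher and 23 lower, against 19.7% and 30.6% of all tested genes, and 27 light-repressed genes were higher and 3 (Mv01909-RA, Mv09686-RA and Mv17758-RA) lower, with medians of -0.08 and 1.38 and -0.22 for all genes.

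The light-induced gene that differed most was Mv20454-RA, which had a log2 fold change of -4.66 (standard error 0.116, adjusted p = 1.89e-11) between the values given above. Mv16082-RA differed nearly as much, with 90.5 and 84.1 FPKM at high temperature and 1982 and 1970.0 FPKM in cold, a log2 fold change of -4.50. Mv07120-RA, at 1812 and 1811 FPKM and 1680.5 and 1625 FPKM, was not called (log2 fold change 0.13, standard error 0.0639, adjusted p = 0.0756), but it was called higher at high temperature on the scale of gene ratios (1.04) and had -0.63, not called, after quantile normalization. In the light-repressed gene Mv20996-RA, levels of 83.8 and 85.3 FPKM at high temperature and 4.08 and 4.34 FPKM in cold gave a log2 fold change of 4.30 (standard error 0.0693, adjusted p = 1.34e-12). Mv18286-RA had a log2 fold change of 4.004 and Mv02738-RA one of 3.88. The most graded light-repressed genes thus lay on opposite sides of the untreated level in cold and at high temperature in the case of Mv18286-RA, and below it in both in the case of Mv01132-RA (log2 fold change -0.14, standard error 0.0624, adjusted p = 0.0641). The difference of Mv01132-RA between the 2 temperatures turned to 0.77 on the scale of gene ratios and to 0.20 after quantile normalization, and was not called in either.

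**Figure D4:**
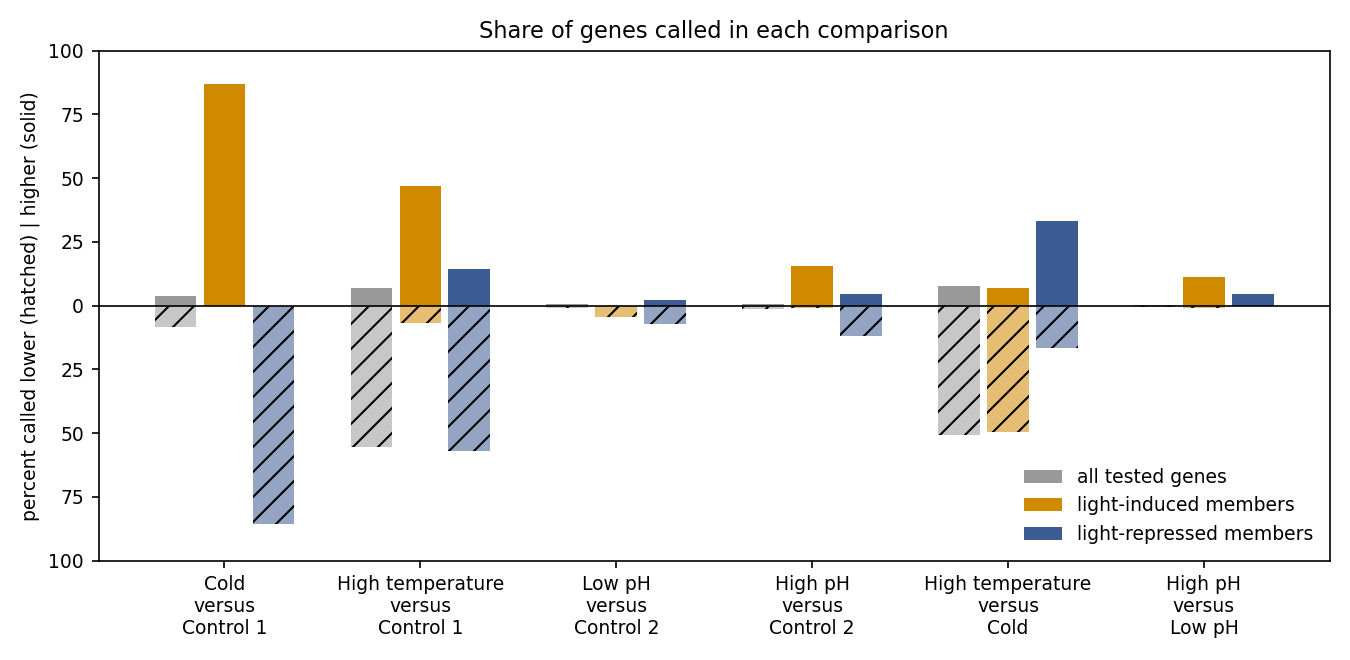
Percent of all 14297 tested genes (grey), of the 115 light-induced genes (orange) and of the 42 light-repressed genes (blue) that were called higher (solid, upward) or lower (hatched, downward) in each comparison, on the deposited scale. In cold 87.0% of light-induced genes were higher and 85.7% of light-repressed genes lower, and the shares in the comparisons of pH were 15.7% or less.

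Fewer members were called at either pH than in cold or at high temperature, and so were fewer of all tested genes. The pH treatments were compared with Control 2, whose libraries also entered the untreated level. At low pH 0 light-induced genes rose and 5 fell (0.664% and 0.902% of all tested genes), and 1 light-repressed gene rose (Mv19716-RA) and 3 fell (Mv01909-RA, Mv23021-RA and Mv08087-RA). At high pH 18 light-induced genes (15.7%) rose and 1 fell, against 0.79% and 1.46% of all tested genes, and 2 light-repressed genes rose (Mv02738-RA and Mv19716-RA) and 5 fell (Mv01909-RA, Mv23021-RA, Mv08087-RA, Mv21865-RA and Mv15388-RA). The median log2 fold change of the light-induced genes was 0.00 at low pH and 0.34 at high pH, where all tested genes had -0.02 and -0.10. That of the light-repressed genes was -0.35 and -0.38. Both low pH libraries lay above all untreated libraries in 47 light-induced genes and below in 38 (20.6% and 28.1% of all tested genes), and both high pH libraries above in 73 and below in 23 (15.8% and 37% of all tested genes). Among light-repressed genes, 3 lay above and 30 below at low pH, and 5 above and 26 below at high pH.

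The rise at high pH was most frequent among the genes with the largest high light step, although both measures use the Control 2 libraries. It was called in 8 of 12 genes with a step of at least 8-fold and 6 of 32 with 4-fold to under 8-fold. Of the other 71 genes 4 were called higher, and of all tested genes 0.79%. Mv18926-RA rose most, to 830.1 and 735 FPKM from 187 and 199 FPKM in Control 2, a log2 fold change of 2.02 (standard error 0.0677, adjusted p = 1.83e-08). At low pH it had 212 and 201 FPKM, a log2 fold change of 0.10, which was not called. Mv12184-RA rose at high pH to 1169 and 1175 FPKM from 532 and 574 FPKM, a log2 fold change of 1.08 (standard error 0.0471, adjusted p = 8.42e-08), which was 0.79 after quantile normalization and then not called. Mv07120-RA had 416 and 397 FPKM at high pH and 189 and 210.4 FPKM in Control 2, and its log2 fold change of 1.03 was near the 2-fold limit. The change was 0.97 after quantile normalization, 0.95 without replicate 1 of Control 2 and 0.99 without replicate 1 of high pH, and was then not called.

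The 1 light-induced gene that fell at both pH was Mv04543-RA, with 18.2 and 18.9 FPKM at low pH, 20.3 and 17.6 FPKM at high pH and 53.8 and 59.4 FPKM in Control 2. Its log2 fold changes were -1.60 (standard error 0.108, adjusted p = 2.94e-06) and -1.58 (standard error 0.108, adjusted p = 2.81e-06), and all 4 libraries lay below the 30.9 and 31.6 FPKM of the darkness libraries. The other 4 that fell at low pH were Mv00994-RA, Mv00993-RA, Mv04867-RA and Mv20903-RA, with log2 fold changes of -1.30, -1.13, -1.06 and -1.02. Mv00993-RA and Mv00994-RA had nearly the same profile over the libraries, as did Mv04867-RA and Mv20903-RA. Mv16082-RA stood at the limit, with 149.7 and 152 FPKM at low pH against 293 and 309.7 FPKM in Control 2 and a log2 difference of -0.996, and was not called, although it was without replicate 1 of Control 2 (-1.04) or replicate 2 of low pH (-1.01), on the scale of gene ratios (-1.02) and after quantile normalization (-1.03).

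Among light-repressed genes, Mv01909-RA had the largest fall at both pH, with 0.272 and 0.142 FPKM at low pH and 0.258 and 0.211 FPKM at high pH against 1.33 and 1.23 FPKM in Control 2. The log2 fold changes were -2.20 (standard error 0.269, adjusted p = 0.000194) and -2.05 (standard error 0.269, adjusted p = 0.000258). With 1 FPKM added in place of 0.1 they shrank to -0.92 and -0.89 and were not called. Mv19716-RA rose at both, to 74.7 and 75.3 FPKM and 76.8 and 76.7 FPKM from 37.2 and 36.4 FPKM, with log2 fold changes of 1.03 (standard error 0.0776, adjusted p = 7.03e-06) and 1.06 (standard error 0.0776, adjusted p = 4.54e-06). Mv02738-RA rose at high pH only, to 25.6 and 25.9 FPKM from 10.6 and 10.4 FPKM, a log2 fold change of 1.29 (standard error 0.146, adjusted p = 9.27e-05), and had 10.98 and 10.8 FPKM at low pH (log2 fold change 0.05, standard error 0.146, adjusted p = 0.859).

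High pH and low pH libraries took no part in choosing the members. Relative to low pH, 13 light-induced genes (11.3%) were higher at high pH and 1 was lower, while 0.322% and 0.483% of all tested genes were. The 13 include Mv04869-RA with Mv20901-RA and Mv04867-RA with Mv20903-RA, pairs with nearly the same profile that count as separate genes. The median log2 fold change of the light-induced genes was 0.32, with 95 of 115 above 0, and that of all genes was -0.08. Mv04169-RA differed most, with 194 and 193 FPKM at high and 38.6 and 41.2 FPKM at low pH and a log2 fold change of 2.27 (standard error 0.0845, adjusted p = 3.96e-08). Mv18926-RA, Mv12184-RA, Mv16082-RA and Mv07120-RA, the 4 most graded genes, were all among the 13, with log2 fold changes of 1.92, 1.60, 1.54 and 1.05. That of Mv07120-RA was 0.97 both without replicate 1 of low pH and after quantile normalization, and it was then not called. The 1 lower gene was Mv20177-RA, with 23.3 and 22.9 FPKM at high and 52.9 and 52.8 FPKM at low pH (log2 fold change -1.19, standard error 0.048, adjusted p = 7.05e-08).

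Of the light-repressed genes 2 were higher at high pH than at low pH and 0 were lower. Mv02738-RA had 25.6 and 25.9 FPKM at high and 10.98 and 10.8 FPKM at low pH, a log2 fold change of 1.23 (standard error 0.146, adjusted p = 0.000319), and Mv18286-RA had 739 and 774 FPKM and 349 and 353 FPKM, a log2 fold change of 1.11 (standard error 0.102, adjusted p = 4.73e-05). That of Mv18286-RA was 0.99 after quantile normalization and then not called. These 2 genes also had the 2 largest steps to darkness among the light-repressed genes. The correlations given next use the log2 ratios of darkness or high light to the untreated level with their signs. These ratios are negative for light-repressed genes under high light and for light-induced genes in darkness. A negative correlation there means that larger steps went with higher differences. Across the 42 genes the darkness ratio and the difference between high and low pH, which share no library, had a Pearson correlation of 0.69 (Spearman 0.55). With the difference between high temperature and low pH it was 0.60 (Spearman 0.58). With the high light ratio the values across these genes were -0.17 (Spearman -0.11) and -0.11 (Spearman -0.11). Across the 115 light-induced genes they were 0.35 (Spearman 0.25) and 0.59 (Spearman 0.52) with the high light ratio. With the darkness ratio they were -0.35 (Spearman -0.076) and 0.0071 (Spearman 0.035).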

How the data were processed

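Polyadenylated RNA was sequenced with a stranded kit as paired-end libraries. The authors aligned the reads with HISAT2 2.1.0 to their genome assembly of *M. viride*, calculated expression per gene with Cufflinks and deposited it as FPKM, which is normalized for transcript length and library size. No read counts or depths were used here, so no counting intervals are given. The other Control 1 library was not analysed here.

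Genes with at least 0.5 FPKM in 2 libraries (14297) were tested with limma 3.58.1 in R 4.3.3, on log2(FPKM + 0.1), over all 15 libraries with 1 mean per condition and a variance trend (7 residual degrees of freedom). P-values were Benjamini-Hochberg adjusted over all these genes, and genes with adjusted p of at most 0.01 and a change of at least 2-fold were called. Adding 0.1 FPKM understates the changes of genes with low values. The study's methods call the replicates biological, and the p-values measure the spread between them. The fit was tested on simulated data. The members, gene lists and tests were chosen with earlier results of these data known.

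Genes were named by rule: in each direction the 4 most graded, every member with a Gene Ontology term, the called members with the largest rise and fall in each comparison with a control, those nearest the thresholds, those with the highest and lowest untreated level, and the photosynthesis genes left out. Others were named after their values were seen. Alternatives were pseudocounts of 1 and 0.01 FPKM, other minimum levels, scaling by gene ratios (each library divided by the median ratio of its genes to their geometric means), quantile normalization, the replicate number as a block, other references and leaving out each replicate. Deposited tables of the study's own comparisons were not used.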

Additional observations from a re-analysis of the deposited data

How the results depend on the processing

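Of 300 recomputed numbers of members, or of called members with both directions together, 3 differed from the reported number by more than 1.5 times. Split by direction, 22 of 544 did, 15 of them by more than 2 genes. Of these 15, 8 were at high temperature on the scale of gene ratios, as given above, and 5 at high temperature after quantile normalization. With the latter, 79 light-induced genes rose and 2 fell relative to Control 1, and 8 light-repressed genes rose and 15 fell. Of all 14297 tested genes 3123 rose and 3304 fell. Relative to cold, 12 light-induced genes were higher and 36 lower, and 25 light-repressed genes were higher and 2 lower. Of all tested genes 2989 were higher and 3257 lower. Without replicate 2 of high pH, 3 rather than 5 light-repressed genes fell at high pH. With 1 FPKM added in place of 0.1, 4 rather than 7 light-repressed genes were called at high pH and 2 rather than 4 at low pH, and 3 rather than 7 were lower at high temperature than in cold, since low values then weigh less. Leaving out 1 replicate in turn gave 2 to 4 light-repressed genes called between high and low pH, with 4 without replicate 1 of high pH and 2 reported. Of 2992 recomputed fold changes of named members, 2 changed sign and were called in at least 1 of the 2 settings: with low pH as the reference, Mv01909-RA was 1.29 higher in cold (reported -0.94, not called) and Mv19716-RA had -0.072 at high temperature (reported 1.28). In 33 more the sign turned with no call in either setting, 10 of them at high temperature. In another 26 cases a call was lost and in 14 one was gained. The same replicate numbers did not pair the samples, since the deviations of equally numbered libraries correlated by -0.08 to 0.07. With the replicate number as a block, 103 light-induced and 36 light-repressed genes were called in cold and 64 and 30 at high temperature, and the block changed no other number by more than 1.5 times. The use of a single Control 1 library and the unknown depth limit the precision of the values for low genes.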

Other observations

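Mv19715-RA and Mv19716-RA, which have consecutive identifiers, had opposite profiles. The light-induced Mv19715-RA had 11.3 and 10.9 FPKM in darkness, 22.7, 24.999 and 26.3 FPKM in untreated cells and 204 and 198 FPKM under high light, and the light-repressed Mv19716-RA had 63.5 and 66.96 FPKM, 29.3, 37.2 and 36.4 FPKM and 13.6 and 11.5 FPKM. In cold they had 212 and 211 FPKM and 11.2 and 12.6 FPKM, and at high temperature 30.2 and 29.6 FPKM and 71.7 and 71.01 FPKM. Whether consecutive identifiers are neighbours in the genome is not stated in the sources used here. The consecutive genes Mv00993-RA and Mv00994-RA, both light-induced, had the same profile within an SD of 0.10 of their log2 ratio over the 15 libraries. The other consecutive members were also both light-induced: Mv09027-RA and Mv09028-RA (SD 0.36), Mv07721-RA and Mv07722-RA (SD 0.60) and Mv00302-RA and Mv00303-RA (SD 0.72). The pair with opposite profiles was thus the exception.

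Mv24240-RA, chosen after its values were seen, was the light-induced gene that rose most at high temperature relative to cold. It had 113 and 98.2 FPKM under high light and 111 and 113 FPKM in cold, but 867 and 958 FPKM at high temperature, against 35.1, 40.1 and 40.2 FPKM in untreated cells. Its log2 fold change relative to cold was 3.03 (standard error 0.0703, adjusted p = 1.2e-11). The light-repressed gene Mv00088-RA, chosen in the same way, had 54.7 and 55.002 FPKM in darkness, 88.6 and 83.9 FPKM at high temperature and 2.95 and 3.93 FPKM in cold, a log2 fold change of 4.62 (standard error 0.107, adjusted p = 1.17e-11) between the last 2.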
